A study of Mus musculus with 24 samples.

Results

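Akt-RACVECs and Akt-LECs are cultured endothelial cells (ECs) of different origin that carry the same survival signal. Both groups of 3 libraries were compared here, 6 of the 24 libraries of the series. Akt-RACVECs were made from mouse amniotic cells (MACs), nonvascular cells of the amniotic fluid of C57BL/6J embryos of E11.5 to E13.5. MACs were converted by lentiviral transduction of the Ets transcription factors Etv2, Erg and Fli1. The converted cells (RACVECs) were then transduced with myristoylated Akt. Akt-LECs are ECs of adult mouse lung that were captured on anti-CD31 beads, transduced with myristoylated Akt without any Ets factor, and purified again by flow cytometry for VE-cadherin and CD31. Myristoylation anchors Akt at the membrane and keeps it active and is shared by all 6 libraries. The EC medium used for conversion held an inhibitor of TGF-β signalling, and the lung ECs were also grown in EC medium. Source tissue, stage of development, exogenous Ets factors and the sorting of the cells all differ between the groups and cannot be told apart. MAC cultures were started from litters of embryos of both sexes. How many starting cells a converted library goes back to is unknown. It is also not stated whether the lung libraries came from separate animals. The p-values below, unless said otherwise, rest on the spread between libraries within each group, pooled over all 8 groups of the series. That spread may in part be technical.

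Etv2 is a pioneer-like Ets factor that acts transiently in the embryo when vascular cells are specified, whereas Erg and Fli1 are kept on in mature endothelium, where they bind Ets sites of junctional and surface genes such as Cdh5. ECs of an adult organ differ from each other along arterial, venous, capillary and lymphatic lines, and they retain part of the positional Hox code of the tissue they came from. A converted cell and a lung EC can therefore be set side by side on 3 layers, which are the shared endothelial genes, the vessel subtype genes, and the genes that record origin.

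All values are FPKM, fragments per kilobase of transcript scaled to the size of the library, and fold changes are on the scale of log2(FPKM + 1), Akt-RACVEC minus Akt-LEC, with a standard error (SE) and a Benjamini-Hochberg adjusted p from limma. This scale understates the change of genes with low FPKM. Numbers of fragments were not used here, so the depth behind a value is unknown. Each library listed 27583 transcripts, summed to 22282 genes, of which 13581 had a mean FPKM of at least 1 over the 6 libraries and were tested. Summed over genes, the libraries held between 1689486 and 1952853 FPKM, and between 12356 and 14623 genes were above 0. Genes counted as called when they passed an adjusted p of 0.05 with at least a 2-fold difference, a log2 of 1 in either direction.

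The transduced genes were examined first, since they check the labels. Etv2 was listed at 0 in all 3 Akt-LECs and had 127, 572 and 289 FPKM in Akt-RACVECs 1, 2 and 3. The groups were apart for this gene, with an adjusted p of 0.0745, and no fold is given against a group at 0. Erg had 176, 427 and 442 FPKM in Akt-LECs and 395, 1002 and 418 FPKM in Akt-RACVECs, and Fli1 had 181, 255 and 426 FPKM against 268, 352 and 328 FPKM. Both genes are expressed by ECs of their own accord, their libraries overlapped, and the log2 fold changes of 0.77 (SE 1.31, adjusted p = 0.868) and 0.22 (SE 0.73, adjusted p = 0.935) were smaller than their errors. Akt1, the kinase that was supplied to both groups, had 798, 1124 and 1266 FPKM in Akt-LECs and 1281, 872 and 920 FPKM in Akt-RACVECs. Its log2 fold change of -0.05 (SE 0.23, adjusted p = 0.956) had a 95% interval from -0.53 to 0.43, so a 2-fold difference in total Akt1 mRNA lay outside it. FPKM of a gene does not separate transduced from endogenous mRNA. RACVECs without Akt, which received the same Ets factors, had 3.91, 13.8 and 0.9 FPKM of Erg and 178, 229 and 257 FPKM of Fli1. Erg was thus low in transduced cells as well, and its level does not check the label. The cause of the higher Erg in Akt-RACVECs was not tested.

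The cells carried endothelial mRNA in all 6 libraries, but the libraries of a group were far from alike. The 10 blood endothelial markers summed to 7235, 14299 and 15993 FPKM in Akt-LECs and to 12270, 20992 and 16198 FPKM in Akt-RACVECs. Akt-LEC 1 stood apart by mRNA of other cell types, although its gate for VE-cadherin and CD31 should remove them. Its 15 fibroblast markers summed to 5102 FPKM against 36.6 and 155 FPKM in the other Akt-LECs and 471, 195 and 3.10 FPKM in Akt-RACVECs. Col1a1, the main fibrillar collagen chain, reached 1065 FPKM there, and the 9 macrophage and leukocyte markers summed to 1867 FPKM, against at most 302 FPKM in any other library. All 15 fibroblast markers and all 9 leukocyte markers were above 0 in Akt-LEC 1. Akt-LEC 2 stood apart by lymphatic mRNA. Its 8 lymphatic markers summed to 19016 FPKM, against 4058 FPKM in Akt-LEC 1, 1301 FPKM in Akt-LEC 3, and 1352, 1339 and 735 FPKM in Akt-RACVECs. Akt-RACVEC 1 held more fibroblast, smooth muscle and leukocyte mRNA than the other converted libraries, although less than Akt-LEC 1. The surfactant genes Sftpa1, Sftpb and Sftpc, which define the alveolar epithelium of lung, were at 0 in all 6 libraries, as were the globin genes Hba-a1, Hba-a2 and Hbb-b2. In bulk RNA, fewer cells of a type and less mRNA per cell cannot be told apart, and the part that other cell types had in the comparisons below was not tested beyond leaving out each library.

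**Figure D1:**
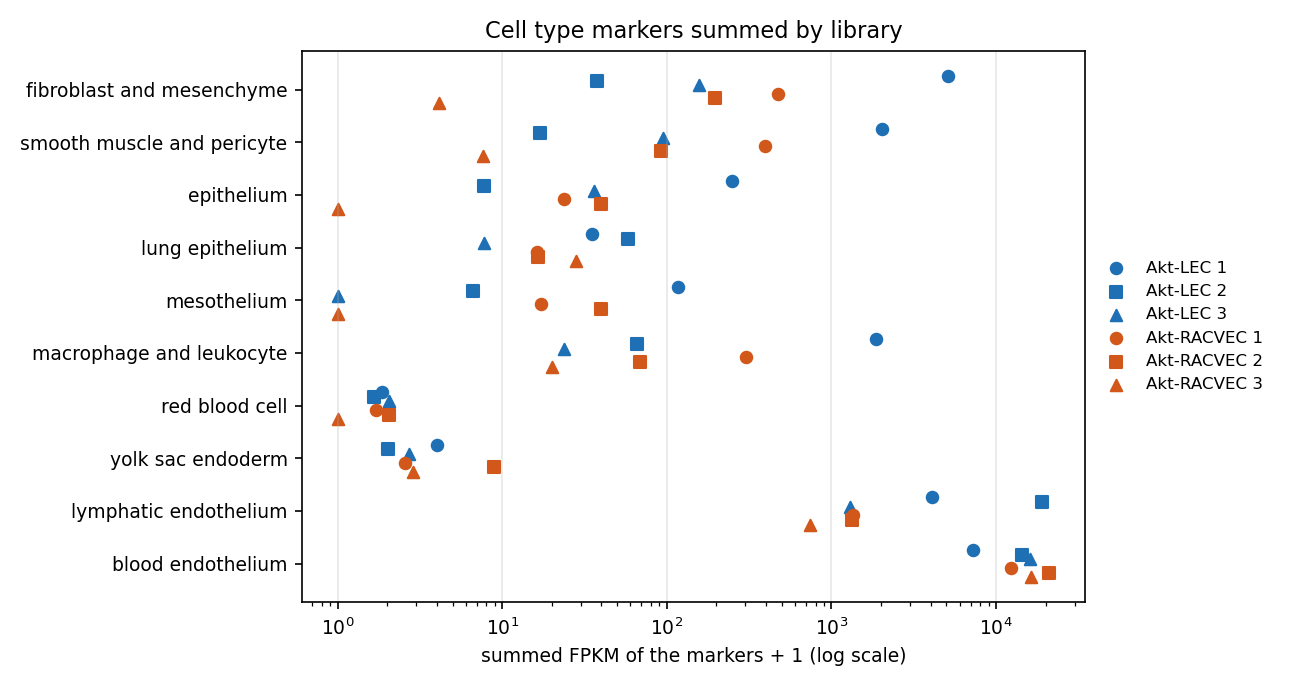
Summed FPKM + 1 of each marker list (log scale, horizontal) by list (vertical), with Akt-LECs in blue and Akt-RACVECs in orange and the symbol giving the replicate. Akt-LEC 1 leads the fibroblast sum with 5102 FPKM, and Akt-LEC 2 leads the lymphatic sum with 19016 FPKM, whereas the blood endothelial sums lie between 7235 and 20992 FPKM in all 6 libraries.

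The sex-linked genes gave a further difference between the libraries of a group. Ddx3y and Eif2s3y, carried by the Y chromosome, had 129 and 159 FPKM in Akt-LEC 1 and were listed at 0 in the other 5 libraries. Xist, the RNA that coats the inactive X chromosome, had 207 and 89.2 FPKM in Akt-LECs 2 and 3, and in Akt-RACVECs it had 26.9, 0.85 and 0 FPKM. Akt-RACVEC 3 therefore showed mRNA of neither kind. None of the 5 sex-linked genes was called between the groups (lowest adjusted p = 0.756).

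The question which the comparison addresses is how far a converted EC with constitutive Akt differs from an adult lung EC with constitutive Akt. The number of genes called was 0 of 13581 higher in Akt-RACVECs (0.0%) and 1 lower (0.00736%), by limma in 1 fit over the 8 groups of the series. That gene was Mall, which encodes a MAL-family proteolipid of membrane rafts (mm9, chr2:127530122-127555668, minus strand). Mall had 67.8, 476 and 185 FPKM in Akt-LECs and 1.16, 5.28 and 0 FPKM in Akt-RACVECs. Each Akt-LEC was more than 10-fold above the highest Akt-RACVEC, and the log2 fold change was -6.26 (SE 0.69, adjusted p = 0.000448), with a 95% interval from -7.71 to -4.80. The call rests on the spread pooled over all groups, of which several lie at or near 0 for this gene. In a fit of these 6 libraries alone the adjusted p of Mall was 0.757.

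In the rest of the series Mall had 68.0, 304 and 271.0 FPKM in Akt-liver ECs, adult liver ECs cultured with the same Akt construct, so the cultured ECs of both adult organs carried it. Freshly isolated liver sinusoidal ECs had 0, 0 and 1.31 FPKM, and RACVECs without Akt had 1.21, 0.74 and 0 FPKM. Mall was listed at 0 in all MACs, Akt-MACs and Sox17-RACVECs. The gene was thus at 67.8 FPKM or more in the 6 libraries of adult ECs cultured with Akt and at 5.28 FPKM or less in the other 18 libraries.

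The low number of calls does not show that the cell types are alike. At an unadjusted p below 0.05 and past the 2-fold limit, 254 genes (1.87%) were higher and 376 genes (2.77%) were lower in Akt-RACVECs, and whatever their size 1309 genes (9.64%) passed an unadjusted p of 0.05. All Akt-RACVECs lay above all Akt-LECs for 1024 genes (7.54%) and below them for 751 genes (5.53%). The same fit with the same number of libraries called 869 genes (6.4%) higher and 758 genes (5.58%) lower in Akt-MACs than in Akt-liver ECs. On the side of agreement, the 95% interval of the log2 fold change lay within -1 and 1 for 5265 genes (38.8%). For these genes a 2-fold difference on the scale of FPKM + 1 was outside the interval. At low FPKM this does not exclude a 2-fold difference in FPKM itself, so the share overstates agreement. The median interval reached 0.811 to each side of its estimate, whereas the median estimate had a size of 0.349.

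**Figure D2:**
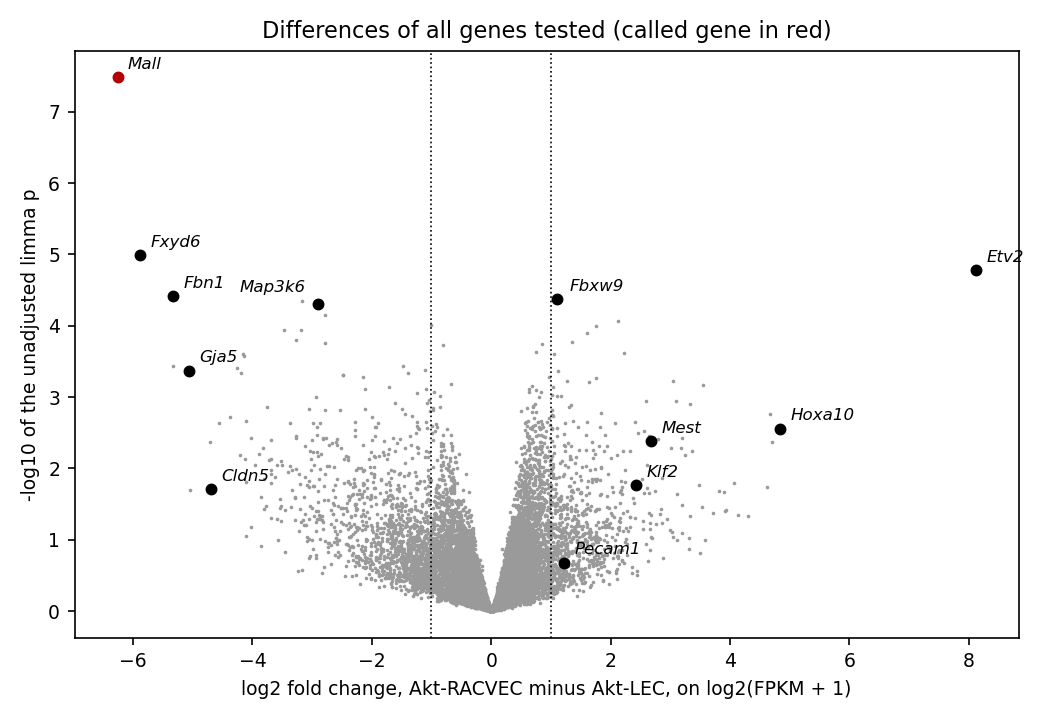
Log2 fold change of each of the 13581 genes tested, Akt-RACVEC minus Akt-LEC on log2(FPKM + 1) (horizontal), against -log10 of its unadjusted limma p (vertical), with dotted lines at the 2-fold limits and named genes labelled. Mall, in red at -6.26, is the only called gene, with Fxyd6, Etv2 and Fbn1 next in height, and the positions of Fxyd6 and Etv2, listed at 0 in a group, depend on the pseudocount.

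Of the genes that came closest to the threshold, 8 had an adjusted p below 0.1, Mall and Etv2 among them. Fxyd6, a regulator of the sodium pump, had 68.9, 267 and 9.90 FPKM in Akt-LECs and was listed at 0 in all Akt-RACVECs (adjusted p = 0.0689). Fbn1, the fibrillin of elastic microfibrils, had 252, 130 and 21.9 FPKM in Akt-LECs and 6.10, 0.63 and 0 FPKM in Akt-RACVECs, for a log2 fold change of -5.33 (SE 0.99, adjusted p = 0.0844). The highest Fbn1 value was in Akt-LEC 1, whose fibroblast markers summed to 5102 FPKM, and the next in Akt-LEC 2, whose fibroblast markers summed to 36.6 FPKM. The part of fibroblast mRNA in the difference was not tested. Map3k6, a kinase of stress-activated cascades, gave an even pattern with 33.5, 34.1 and 30.4 FPKM in Akt-LECs and 4.86, 2.06 and 4.05 FPKM in Akt-RACVECs. Its log2 fold change was -2.90 (SE 0.55, adjusted p = 0.0844), and it was between 13.97 and 33.2 FPKM in RACVECs without Akt and between 18.2 and 30.9 FPKM in MACs. Map3k6 was thus lower in Akt-RACVECs than in each library of the cells they were made from and of the lung ECs. Low values were not confined to Akt-RACVECs. Sox17-RACVECs had 14.38, 2.97 and 8.5 FPKM of Map3k6, and sinusoidal ECs had 5.1, 8.5 and 5.14 FPKM. Akt-MAC 2 had 3.37 FPKM, whereas the other Akt-MACs had 15.39 FPKM or more and Akt-liver ECs had 18.94 FPKM or more. Fbxw9, an F-box protein of ubiquitin ligases, ran the other way with 39.3, 59.8 and 59.5 FPKM against 96.4, 108 and 137 FPKM, a log2 fold change of 1.10 (SE 0.21, adjusted p = 0.0844). Fbxw9 was also between 112 and 117 FPKM in MACs. Unc13b and Trim14, which act in vesicle priming and in antiviral signalling, completed the set at the same adjusted p. Unc13b had 11.7, 52.5 and 9.18 FPKM against 0.73, 2.01 and 0.82 FPKM, and Trim14 had 7.69, 27.7 and 3.77 FPKM in Akt-LECs and was listed at 0 in Akt-RACVECs.

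The promoters of 3 genes are given: Mall carried the called difference, Hoxa10 had the largest estimate above 0 of the genes detected in both groups without overlap, and the arterial gene Gja5 was called once Akt-LEC 1 was left out. Each line is the 250 bases before the RefSeq start on GRCm38.p6, 5′ to 3′ on the strand of the gene, and capitals mark the Ets core letters on either strand. The letters searched were AGGAAG as one form, with AGGAAA as another, then CGGAAG as a further form, and finally CGGAAA, all around the core that Ets factors bind. They lie at chr2:127729898-127730147 (minus strand) for Mall, chr6:52240855-52241104 (minus strand) for Hoxa10, at the outermost of its 2 listed starts, and chr3:97032152-97032401 (plus strand) for Gja5.
Mall: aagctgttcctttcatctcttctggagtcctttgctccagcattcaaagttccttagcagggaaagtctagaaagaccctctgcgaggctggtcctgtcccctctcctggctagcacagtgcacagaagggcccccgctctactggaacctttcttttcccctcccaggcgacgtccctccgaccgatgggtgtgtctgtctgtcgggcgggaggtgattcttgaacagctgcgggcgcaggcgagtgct
Hoxa10: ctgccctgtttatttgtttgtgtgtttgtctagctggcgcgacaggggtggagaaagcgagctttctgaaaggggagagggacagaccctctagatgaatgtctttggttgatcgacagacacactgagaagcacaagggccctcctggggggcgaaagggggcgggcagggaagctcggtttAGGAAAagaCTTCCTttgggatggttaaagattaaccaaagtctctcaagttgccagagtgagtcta
Gja5: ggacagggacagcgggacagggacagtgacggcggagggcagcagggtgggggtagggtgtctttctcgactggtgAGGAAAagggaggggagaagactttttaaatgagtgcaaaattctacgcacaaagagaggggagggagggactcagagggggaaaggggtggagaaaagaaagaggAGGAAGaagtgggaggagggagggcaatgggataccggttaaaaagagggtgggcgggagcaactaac
The Mall promoter held 0 of these letters, and those of Hoxa10 and Gja5 held 2 each. Of 32851 start sites in the RefSeq table, 57.2% had at least 1 match in the same window and 24.2% had at least 2. A match describes the letters and is not a bound site.

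The endothelial surface and junction genes were present in both groups, and none of the 30 genes tested was called (lowest adjusted p = 0.398). Cdh5, the VE-cadherin of adherens junctions, had 1397, 2074 and 3486 FPKM in Akt-LECs and 2413, 3887 and 2008 FPKM in Akt-RACVECs. Its libraries overlapped, and the log2 fold change of 0.30 (SE 0.48, adjusted p = 0.859) had a 95% interval from -0.72 to 1.31. Pecam1, which encodes CD31, had 1077, 2417 and 2984 FPKM against 3649, 6524 and 4132 FPKM, so each Akt-RACVEC was above each Akt-LEC (log2 fold change 1.22, SE 0.94, adjusted p = 0.701). Both proteins were used to sort the lung cells. Kdr, the main Vegf receptor, had 303, 1430 and 441 FPKM in Akt-LECs and a narrow range of 1016 to 1198 FPKM in Akt-RACVECs. Flt1, the decoy Vegf receptor, had 47.2, 79.4 and 108 FPKM against 235, 402 and 152 FPKM. Icam2, an adhesion molecule of resting ECs, had 198, 1639 and 1415 FPKM against 1890, 2642 and 3446 FPKM. Emcn, a sialomucin of capillaries and veins, was the reverse, at 1439 to 2123 FPKM in Akt-LECs and 723 to 1373 FPKM in Akt-RACVECs. In all, 3 genes of the list (10%) lay wholly higher and 1 (3.33%) wholly lower in Akt-RACVECs, against 7.54% and 5.53% of all genes. The median log2 fold change of the list was 0.42, against 0.012 of all genes, and it was 0.02 without Akt-LEC 1 and 0.679 without Akt-LEC 3. The shares of 7.54% and 5.53% and the median of 0.012 are the background for each list that follows.

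Some surface genes differed more among the converted lines than between the groups. Cldn5 encodes claudin-5, the main tight junction protein of endothelium, and it had 956, 927 and 1369 FPKM in Akt-LECs. In Akt-RACVECs it had 4.75, 3543 and 2.40 FPKM, so 2 converted lines were nearly without it and 1 exceeded each lung line. The log2 fold change of -4.70 (SE 1.84, adjusted p = 0.398) was not called, and without Akt-RACVEC 2 it was -7.92 (adjusted p = 0.0241). Vwf, the von Willebrand factor stored by ECs, split the converted lines the other way, with 8.51, 4.43 and 2120 FPKM against 24.7, 89.8 and 115 FPKM in Akt-LECs. Aplnr, the apelin receptor, had 275, 8.55 and 3056 FPKM in Akt-RACVECs and between 5.16 and 36.5 FPKM in Akt-LECs.

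**Figure D3:**
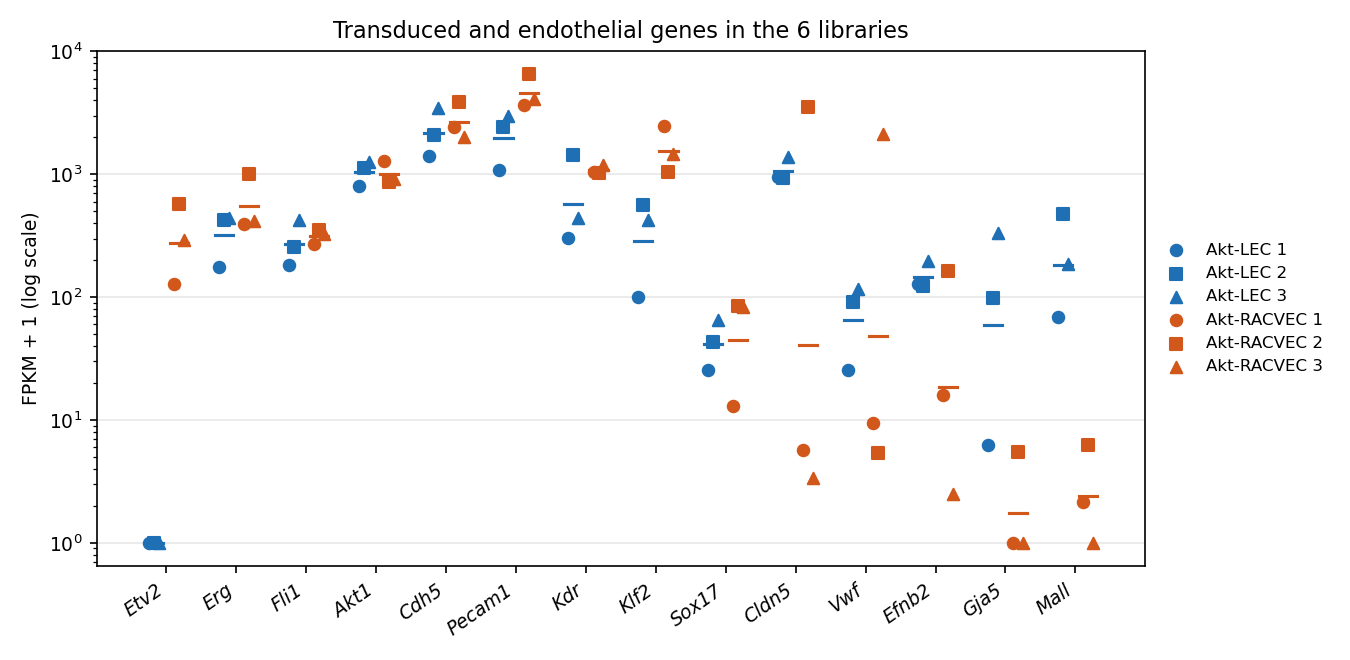
FPKM + 1 (log scale, vertical) of 14 transduced and endothelial genes (horizontal) in each library, with Akt-LECs in blue and Akt-RACVECs in orange, the symbol giving the replicate and the bar the mean on the log scale. Cdh5, Fli1 and Akt1 of the groups lie together, Etv2 is at 0 in the Akt-LECs, Mall is apart in the opposite direction, and among Akt-RACVECs Cldn5 spreads from 2.40 to 3543 FPKM and Vwf from 4.43 to 2120 FPKM.

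Most endothelial transcription factors were found in both groups, and Meox1 (38.8, 225 and 0 FPKM in Akt-LECs) and Nkx2-3 (0, 6.46 and 32.6 FPKM in Akt-LECs) were listed at 0 in all Akt-RACVECs. Of 28 tested, 0 were called (lowest adjusted p = 0.26), 1 lay wholly higher (3.57%, against 7.54% of all genes) and 1 wholly lower (3.57%, against 5.53%) in Akt-RACVECs. The median log2 fold change was 0.167, and it turned to -0.086 without Akt-LEC 1 and was 0.399 without Akt-LEC 2 and 0.269 without Akt-RACVEC 1. The SoxF factors, which act downstream of the Vegf and Ets inputs, were expressed in all 6 libraries. Sox7 had 127, 221 and 367 FPKM in Akt-LECs and 448, 322 and 226 FPKM in Akt-RACVECs. Sox17 had 24.5, 42.2 and 64.0 FPKM against 12.01, 83.5 and 82.2 FPKM, and Sox18 had 395, 2218 and 725 FPKM against 736, 1701 and 676 FPKM. The groups overlapped for all 3 genes, but the 95% interval of Sox17 ran from -2.22 to 2.46, which leaves room for a difference of several-fold. Klf2, the shear stress factor of quiescent endothelium, was the gene wholly higher, at 99.1, 559 and 427 FPKM in Akt-LECs and 2485, 1039 and 1458 FPKM in Akt-RACVECs (log2 fold change 2.43, SE 0.93, adjusted p = 0.383). Without Akt, RACVECs had 172, 151 and 637 FPKM of Klf2.

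Genes known for lung endothelium were tested as a list of 14, and none was called (lowest adjusted p = 0.405). Foxf1, a mesenchymal and endothelial factor of the lung, had 93.3, 35.2 and 104 FPKM in Akt-LECs and 63.3, 56.4 and 92.0 FPKM in Akt-RACVECs, for a log2 fold change of -0.02 (SE 0.92, adjusted p = 0.995). RACVECs without Akt had 8.37 to 20.8 FPKM of Foxf1 and Akt-liver ECs 12.9 to 174 FPKM, so lung cells were not alone in this level. Tbx2 had 106, 11.4 and 0.56 FPKM in Akt-LECs and 0.95 to 3.54 FPKM in Akt-RACVECs, and Tbx3 had 48.5, 0.66 and 0 FPKM against 2.11, 40.9 and 0 FPKM. Of the libraries compared, both T-box factors were highest in Akt-LEC 1, which also held the most fibroblast mRNA. Tbx3 was nearly as high in Akt-RACVEC 2. Freshly isolated liver sinusoidal ECs had 87.3, 114 and 125 FPKM of Tbx2 but at most 2.61 FPKM of Tbx3. The part of fibroblast mRNA in these values was not tested. Car4, a marker of aerocyte capillaries, was at most 10.6 FPKM in any Akt-LEC and 10.3 FPKM in any Akt-RACVEC. The median of the list was 0.006, and it ranged from -0.808 to 0.348 when each library was left out.

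Arterial and Notch genes were tested as a list of 22, with 0 calls (lowest adjusted p = 0.188), and the estimate was below 0 for 16 of them. Gja5, the connexin 40 of arterial gap junctions, had 5.26, 97.6 and 331 FPKM in Akt-LECs and 0, 4.44 and 0 FPKM in Akt-RACVECs. The groups did not overlap, although the gap between Akt-LEC 1 and Akt-RACVEC 2 was small (log2 fold change -5.07, SE 1.18, adjusted p = 0.188), and without Akt-LEC 1 the gene was called at -6.68 (adjusted p = 0.0261). Gja5 was at 0.63 to 21.1 FPKM in RACVECs without Akt and at 0 to 3.20 FPKM in Akt-liver ECs. Efnb2, the ephrin of arterial ECs, had 126, 123 and 194 FPKM against 14.9, 164 and 1.5 FPKM, so Akt-RACVEC 2 was within the range of lung cells and the other converted lines were below it. The receptors differed less. Notch1 had 129, 117 and 168 FPKM against 156, 207 and 118 FPKM, with a log2 fold change of 0.20 (SE 0.49, adjusted p = 0.911). Notch2 had 74.0, 19.3 and 3.90 FPKM against 9.72, 6.75 and 3.87 FPKM, and Notch3, a mural cell receptor, was at 16.9 FPKM in Akt-LEC 1 and at most 3.17 FPKM elsewhere. The list had a median of -0.498, which was 0.179 without Akt-RACVEC 3 and between -0.919 and -0.956 without Akt-LEC 3 or Akt-RACVECs 1 or 2.

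Several lymphatic genes were high in 1 or both of Akt-LECs 1 and 2, with overlap between the groups for most of them. Prox1, the factor that specifies lymphatic ECs, had 111 and 433 FPKM in Akt-LECs 1 and 2, 0.79 FPKM in Akt-LEC 3, and 0, 3.76 and 0 FPKM in Akt-RACVECs. Ccl21a, a chemokine of lymphatic vessels, had 4646 FPKM in Akt-LEC 2 and at most 4.49 FPKM in any other library. Lyve1, a hyaluronan receptor of lymphatic and sinusoidal ECs, was in all libraries, with 1772, 3350 and 1192 FPKM in Akt-LECs and 978, 810 and 440 FPKM in Akt-RACVECs. It was the member of the list that did not overlap (log2 fold change -1.45, SE 1.14, adjusted p = 0.708). The venous genes overlapped. Nr2f2, the factor of venous fate, had 289, 623 and 280 FPKM against 523, 331 and 582 FPKM. Ephb4, the venous partner of ephrin-B2, had 201, 1158 and 427 FPKM against 770, 829 and 1478 FPKM, and Nrp2 had 315, 1775 and 278 FPKM against 267, 126 and 498 FPKM. Of the 15 genes of both kinds, 0 were called (lowest adjusted p = 0.285), 13 had an estimate below 0, and the median of -1.446 became -0.386 without Akt-LEC 2 and -2.249 without Akt-LEC 3.

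Ligands of the Vegf family overlapped between the groups. Vegfa had 418, 123 and 54.7 FPKM in Akt-LECs and 193, 107 and 141 FPKM in Akt-RACVECs, Vegfb had 132, 146 and 135 FPKM against 147, 56.5 and 110 FPKM, and Vegfc, the lymphangiogenic ligand, was at 5.69 to 46.1 FPKM against 18.6 to 49.7 FPKM. Angpt2, the antagonist ligand of Tie2 that ECs store, had 2665, 370 and 33.5 FPKM in Akt-LECs and 12.7, 104 and 2.74 FPKM in Akt-RACVECs. The ranges overlapped between Akt-LEC 3 and Akt-RACVEC 2, and the log2 fold change was -4.21 (SE 1.38, adjusted p = 0.301). The list of 23 genes had 0 calls, 1 gene wholly higher (4.35%), 0 wholly lower, and a median of -0.004, which ran from -0.24 without Akt-LEC 2 to 0.678 without Akt-RACVEC 3.

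Genes that hold leukocytes were lower on average in Akt-RACVECs, without a call among 17 tested (lowest adjusted p = 0.485). Vcam1, the cytokine-induced ligand of leukocyte integrins, had 446, 78.0 and 280 FPKM in Akt-LECs and 55.2, 32.2 and 18.8 FPKM in Akt-RACVECs, with no overlap and a log2 fold change of -2.69 (SE 1.21, adjusted p = 0.485). The selectins overlapped. Sele had 40.3, 197 and 231 FPKM against 104, 70.2 and 155 FPKM, Selp had 545, 850 and 954 FPKM against 451, 343 and 1086 FPKM, and Selplg, their leukocyte ligand, was at 7.83 FPKM in Akt-LEC 1 and listed at 0 in the other 5 libraries. In this list 1 gene lay wholly higher (5.88%, against 7.54% of all genes) and 2 wholly lower (11.8%, against 5.53%). The median of -1.047 became -0.425 without Akt-LEC 3, -0.649 without Akt-LEC 2, and -0.517 without Akt-RACVEC 3. Among 19 coagulation and tone genes, 1 lay wholly lower (5.26%), and 0 were called (lowest adjusted p = 0.26). This was Ece1, which cuts the precursor of the vasoconstrictor endothelin, with 613, 1017 and 654 FPKM in Akt-LECs and 307, 410 and 327 FPKM in Akt-RACVECs (log2 fold change -1.10, SE 0.31, adjusted p = 0.26). F3, the tissue factor that starts coagulation, had 157, 4.09 and 2.31 FPKM against 36.5, 0 and 0 FPKM. F8, of which ECs are a main source, had 3.98, 40.8 and 115 FPKM against 110, 43.2 and 49.8 FPKM.

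Matrix genes had estimates in both directions, with 0 calls among 25 (lowest adjusted p = 0.0844). The chains of the basement membrane collagen were higher on average in Akt-RACVECs. Col4a1 had 1732, 1122 and 2498 FPKM in Akt-LECs and 2172, 4247 and 4935 FPKM in Akt-RACVECs (log2 fold change 1.08, SE 0.46, adjusted p = 0.461). Col4a2, its neighbour on chromosome 8, had 1062, 762 and 1591 FPKM against 1352, 2589 and 3442 FPKM. Akt-RACVEC 1 lay within the lung range for both chains. Col18a1, the source of endostatin, had 589, 2349 and 1673 FPKM against 890, 1915 and 753 FPKM. Fbn1 was the 1 gene of this list wholly lower (4.0%), and 0 were wholly higher. The median of -0.284 became 0.069 without Akt-LEC 1, -0.137 without Akt-RACVEC 3, -0.776 without Akt-LEC 2 and -0.692 without Akt-RACVEC 2.

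Hoxa genes of opposite ends of their cluster differed in opposite directions by their estimates. None of the 26 Hox genes tested of 39 listed was called (lowest adjusted p = 0.26). Hox clusters are read from 3′ to 5′ along the body axis, so genes of high number mark posterior tissue. In the Hoxa cluster (mm9 chromosome 6) the estimates of Hoxa2 to Hoxa6 were below 0 and those of Hoxa9 to Hoxa13 above 0. The other clusters did not show this split, since Hoxb3, Hoxb4, Hoxb5 and Hoxd3 also had estimates above 0. In all, 19 of the 26 Hox estimates were above 0. Hoxa5, a gene of lung development, had 159, 39.4 and 101 FPKM in Akt-LECs and 36.4, 20.9 and 24.7 FPKM in Akt-RACVECs (log2 fold change -1.65, SE 0.68, adjusted p = 0.429). Hoxa2 had 15.5, 8.61 and 14.5 FPKM against 2.69, 4.09 and 1.30 FPKM, and Hoxa3 had 42.8, 12.6 and 30.03 FPKM against 10.8, 12.5 and 10.5 FPKM, where the groups were apart by less than 0.1 FPKM at their nearest. Hoxa9 had 1.26, 2.76 and 3.28 FPKM in Akt-LECs and 22.2, 27.5 and 11.4 FPKM in Akt-RACVECs (log2 fold change 2.61, SE 0.89, adjusted p = 0.331). Hoxa10 (mm9, chr6:52181196-52190853, minus strand) had 0.93, 0 and 1.5 FPKM against 66.4, 61.2 and 26.02 FPKM. The groups were far apart for Hoxa10, at a log2 fold change of 4.84 (SE 1.40, adjusted p = 0.26).

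In the rest of the series, Hoxa10 was found in amniotic cells and in ECs made from them. RACVECs without Akt had 81.7, 89.6 and 117 FPKM and MACs had 229, 0 and 46.4 FPKM, so the amniotic cultures themselves varied, whereas Akt-liver ECs had 2.25, 0 and 0 FPKM and sinusoidal ECs 0 in all libraries. Beyond Hoxa10, Hoxa11 had 61.1, 56.7 and 0 FPKM in Akt-RACVECs, Hoxa13 had 29.02, 1.95 and 1.46 FPKM, Hoxd11 had 56.5, 12.2 and 0 FPKM and Hoxd13 had 116, 2.42 and 0 FPKM. These 4 most posterior genes were listed at 0 in all Akt-LECs. Akt-RACVEC 1 held the most of them, followed by Akt-RACVEC 2. In the Hoxb cluster, Hoxb7 had 32.4, 107 and 132 FPKM against 280, 284 and 306 FPKM, Hoxb6 had 40.5, 25.9 and 66.4 FPKM against 112, 119 and 75.9 FPKM, and Hoxb9 had 5.41, 0.81 and 158 FPKM against 280, 31.5 and 353 FPKM. For Hoxb9, Akt-LEC 3 was above Akt-RACVEC 2. The Hoxc cluster had at most 1.23 FPKM for any gene, in Akt-LEC 1, and was otherwise at 0. In all, 5 of 26 Hox genes (19.2%, against 7.54% of all genes) lay wholly higher and 3 of 26 wholly lower (against 5.53% of all genes) in Akt-RACVECs, with a median of 0.787. Neighbouring Hox genes share regulation and in part overlapping transcripts, so they are not independent of each other.

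**Figure D4:**
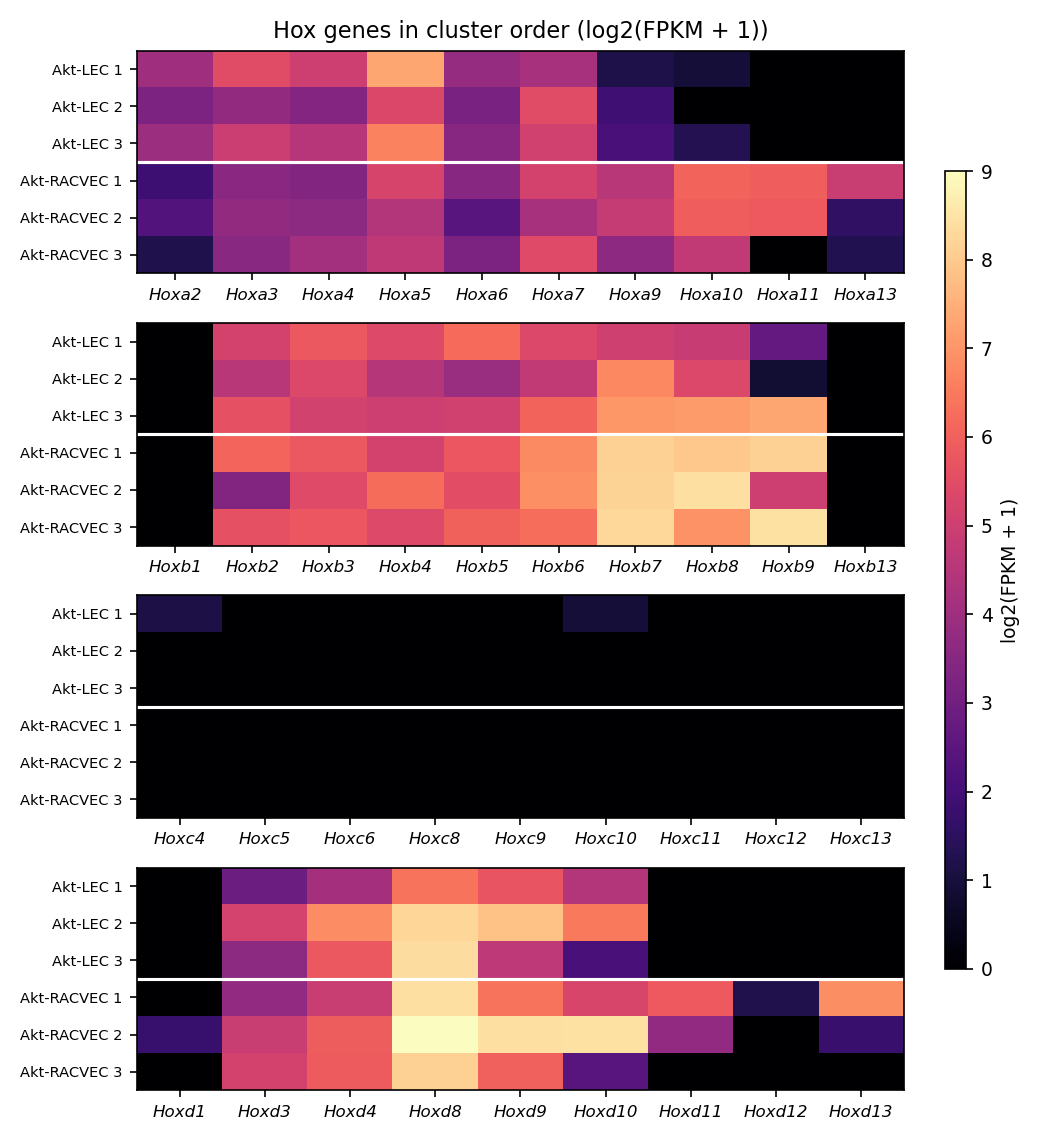
Log2(FPKM + 1) by colour for Hox genes of the 4 clusters in order of their number (horizontal), with the 3 Akt-LECs above the white line and the 3 Akt-RACVECs below it. Hoxa9 and Hoxa10 are bright in the 3 Akt-RACVECs and dark in the Akt-LECs, the 5′ genes Hoxa11, Hoxa13, Hoxd11 and Hoxd13 are seen in Akt-RACVECs and at 0 in Akt-LECs, and the Hoxc cluster is dark in all 6 libraries.

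Fetal and imprinted growth genes were higher on average in Akt-RACVECs, with 0 calls among 17 tested (lowest adjusted p = 0.283) and 15 estimates above 0. Mest, a paternally expressed gene of fetal growth, had 283, 378 and 1427 FPKM in Akt-LECs and 2913, 4620 and 2956 FPKM in Akt-RACVECs (log2 fold change 2.67, SE 0.82, adjusted p = 0.283). Elsewhere in the series Mest was at 1358 to 3066 FPKM in Akt-liver ECs, 255 to 546 FPKM in MACs, 401 to 4666 FPKM in RACVECs without Akt and 419 to 4120 FPKM in Sox17-RACVECs. Igf2, the fetal growth factor, had 36.2, 145 and 6.68 FPKM against 149, 6.17 and 312 FPKM, and Igf2r, its clearing receptor, had 151, 40.4 and 34.6 FPKM against 90.0, 99.7 and 17.8 FPKM. Dlk1 had 3.13, 0 and 0 FPKM against 0, 108 and 0 FPKM. Apart from Mest and 1 further gene (11.8% wholly higher in all), the libraries of this list overlapped. The median of 0.964 depended on single libraries, at 0.297 without Akt-RACVEC 2, 0.37 without Akt-LEC 3, 0.484 without Akt-RACVEC 1, 0.582 without Akt-LEC 2, 1.944 without Akt-LEC 1 and 2.016 without Akt-RACVEC 3.

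Antigen presentation was lower on average in Akt-RACVECs, without a call among 16 genes tested (lowest adjusted p = 0.227). The class I heavy chain H2-K1 had 516, 2829 and 803 FPKM in Akt-LECs and 251, 232 and 604 FPKM in Akt-RACVECs (log2 fold change -1.68, SE 0.62, adjusted p = 0.363). H2-D1 had 653, 3633 and 1570.8 FPKM against 883, 781 and 1978 FPKM, and H2-Q4 had 106, 766 and 316 FPKM against 126, 82.1 and 370 FPKM. These genes are near-copies of each other, so the split of fragments between them is uncertain. Nlrc5, the transactivator of class I genes, had 11.47, 28.7 and 6.09 FPKM against 1.15, 0 and 1.76 FPKM (log2 fold change -2.93, SE 0.75, adjusted p = 0.227). Psmb9, a subunit of the immunoproteasome, had 30.2, 163 and 65.7 FPKM against 13.7, 12.3 and 29.2 FPKM. Both were wholly lower in Akt-RACVECs, 2 of 16 genes (12.5%, against 5.53% of all genes), and 14 of the 16 estimates were below 0. Akt-LEC 2 had the highest value of each class I gene named, and the median of -0.771 became -0.209 without it and ran to -1.334 without Akt-LEC 1 and -1.227 without Akt-RACVEC 3.

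The median of the interferon-induced genes was also below 0, but its sign depended on Akt-LEC 2. Stat2, which carries type I interferon signals to the nucleus, had 28.1, 268 and 106 FPKM in Akt-LECs and 56.1, 46.3 and 140 FPKM in Akt-RACVECs. Irf1, an interferon-induced transcription factor, had 54.3, 115 and 88.01 FPKM against 43.1, 33.5 and 148 FPKM. Both were highest or second in Akt-LEC 2 and low in Akt-RACVEC 2. Of 19 tested, 0 were called (lowest adjusted p = 0.255), 1 lay wholly lower (5.26%), and the median of -0.582 turned to 0.159 without Akt-LEC 2 and ran to -1.504 without Akt-LEC 1 and -1.089 without Akt-RACVEC 3.

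Genes of the Akt pathway were tested as well. Of 24 genes tested, 0 were called (lowest adjusted p = 0.291), and the median was -0.094, between -0.199 without Akt-RACVEC 1 and 0.094 without Akt-LEC 1. Akt2 had 79.0, 31.3 and 22.9 FPKM in Akt-LECs and 36.8, 21.2 and 36.7 FPKM in Akt-RACVECs, with overlap. Ccng2, an unconventional cyclin that Foxo factors induce and Akt restrains, had 61.0, 63.7 and 64.5 FPKM in Akt-LECs and 186, 256 and 115 FPKM in Akt-RACVECs (log2 fold change 1.47, SE 0.47, adjusted p = 0.291). Pik3ip1, an inhibitor of PI3-kinase, had 4.15, 15.3 and 9.65 FPKM against 16.3, 31.4 and 23.95 FPKM. These 2 genes were wholly higher in Akt-RACVECs, 8.33% of the list and close to the 7.54% of all genes, and 0 were wholly lower. Of the 24 estimates, 11 were above 0 and 13 below. RACVECs without Akt had 96.1 to 218 FPKM of Ccng2 and MACs 107 to 154 FPKM. Whether Akt activity differed between the groups was not tested.

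Ligands of the Bmp family were tested with their receptors and inhibitors, 26 genes in all, and 0 were called (lowest adjusted p = 0.26). Bmp6, made by ECs of several organs, had 37.1, 5.45 and 41.1 FPKM in Akt-LECs and 3.05, 1.13 and 1.42 FPKM in Akt-RACVECs, with no overlap (log2 fold change -2.98, SE 0.85, adjusted p = 0.26). Bmp6 was also at 34.1 to 184 FPKM in Akt-liver ECs and at 0.68 to 3.39 FPKM in RACVECs without Akt. Bmp2 had 12.3, 2.40 and 13.3 FPKM against 3.70, 67.0 and 0 FPKM, and Bmp4 had 247, 17.4 and 120 FPKM against 52.4, 278 and 8.82 FPKM. For both ligands Akt-RACVEC 2 was above each Akt-LEC and Akt-RACVEC 3 below each. In this list 2 genes (7.69%) lay wholly lower, 0 wholly higher. The median of -0.588 was -0.116 without Akt-LEC 1, -0.316 without Akt-LEC 2, -0.352 without Akt-RACVEC 3, -1.143 without Akt-LEC 3 and -1.129 without Akt-RACVEC 1.

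Cell cycle genes were the list with the largest share of wholly separated libraries among those given here, 9 of 28 (32.1%) lower in Akt-RACVECs against 5.53% of all genes, and 23 of 28 estimates were below 0. None was called (lowest adjusted p = 0.551), and none passed an unadjusted p of 0.05 with a 2-fold difference. Mki67, the gene of the proliferation antigen Ki-67, had 175, 102 and 115 FPKM in Akt-LECs and 78.5, 72.9 and 41.8 FPKM in Akt-RACVECs (log2 fold change -1.02, SE 0.62, adjusted p = 0.625). Ccna2, a cyclin of the S and G2 phases, had 378, 299 and 232 FPKM against 119, 173 and 52.2 FPKM (log2 fold change -1.53, SE 0.79, adjusted p = 0.556). Top2a, which untangles replicated DNA, overlapped at 415, 200 and 363 FPKM against 341, 298 and 178 FPKM. Mitotic genes rise and fall together within a culture, so the 9 genes are not 9 independent observations, and the median of -0.388 was -0.153 without Akt-LEC 1, -0.18 without Akt-RACVEC 3 and -0.792 without Akt-LEC 2.

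Glycolytic genes were called in neither direction. The 95% interval lay within the 2-fold limits for 8 of 20 genes, a share near the 38.8% of all genes, and 0 were called (lowest adjusted p = 0.457). Slc2a1, the glucose transporter of ECs, had 490, 303 and 421 FPKM in Akt-LECs and 626, 1711 and 506 FPKM in Akt-RACVECs, with no overlap (log2 fold change 1.04, SE 0.52, adjusted p = 0.544). Hk1 had 233, 431 and 420 FPKM against 421, 908 and 326 FPKM, and Hk2 had 85.1, 48.6 and 30.5 FPKM against 97.5, 73.4 and 40.5 FPKM. Akt-RACVEC 2 was the highest library for both Slc2a1 and Hk1. The list had 2 genes wholly higher (10%), 0 wholly lower, and a median of 0.163, which turned to -0.104 without Akt-RACVEC 2 and was 0.611 without Akt-RACVEC 3.

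Whole profiles were then compared by Pearson correlation of log2(FPKM + 1) across the 13581 genes, which are not independent replicates. The 9 pairs of an Akt-LEC with an Akt-RACVEC had a mean r of 0.849 ± 0.0554 (SD), the 3 pairs of Akt-RACVECs 0.870 ± 0.0392, and the 3 pairs of Akt-LECs 0.835 ± 0.0440. Pairs between the groups were thus no farther apart on average than pairs of Akt-LECs. The highest of the 15 values joined Akt-LEC 3 with Akt-RACVEC 1, at 0.916, and the lowest joined Akt-LEC 1 with Akt-RACVEC 3, at 0.735. Akt-LEC 3 correlated at 0.916, 0.899 and 0.899 with the 3 Akt-RACVECs, and at 0.838 and 0.877 with the other Akt-LECs.

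**Figure D5:**
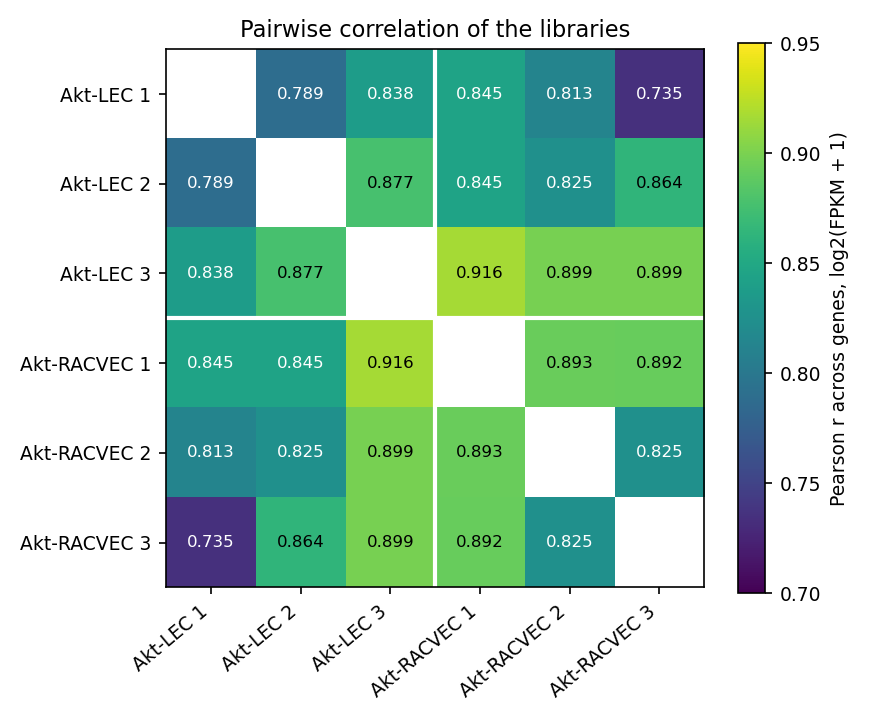
Pearson r of each pair of libraries across 13581 genes on log2(FPKM + 1), written in each cell and shown by colour, with white lines between the groups. Akt-LEC 3 is nearer to the 3 Akt-RACVECs (0.899 to 0.916) than to Akt-LECs 1 and 2 (0.838 and 0.877).

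Both groups had a wide internal spread. The median SD of log2(FPKM + 1) within Akt-LECs was 0.418 and within Akt-RACVECs 0.426, against 0.223 within the freshly isolated sinusoidal ECs. The 3 Akt-LECs spanned more than 3 log2 units for 1539 genes (11.3%) and the 3 Akt-RACVECs for 1287 genes (9.48%), whereas sinusoidal ECs did so for 100 genes (0.736%). The number of calls depended on Akt-LEC 3. Without that library, limma called 16 genes higher (0.117%) and 57 lower (0.417%) in Akt-RACVECs of 13669 tested. Akt-LEC 3 lay inside the range of the Akt-RACVECs for 5 of the 16 and for 39 of the 57. Tbx1, a T-box factor also known from lymphatic ECs, was among the latter list, with 75.8, 411 and 1.04 FPKM in Akt-LECs and 0 in all Akt-RACVECs. Prox1, Fbn1 and Mall were in it as well, and Etv2 and Fbxw9 were among the higher genes.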

How the data were processed

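RNA of 3 Akt-RACVEC and 3 Akt-LEC cultures was sequenced from TruSeq libraries as paired reads on a HiSeq2000. The authors aligned them by TopHat to mm9 (printed as mmp9 in their methods) and deposited Cufflinks FPKM per RefSeq transcript, with upper-quartile scaling and bias correction. Versions and the annotation release are not given in the sources used here. The depth is unknown, and an FPKM of 0 can be a failed estimate.

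Of 27583 transcripts, 26934 were joined to a mouse gene symbol through RefSeq (GRCm38.p6, used for names and promoter sequences), 649 were kept apart, and FPKM were summed per symbol, over several transcripts for 3427 symbols. Gene positions are those of GENCODE M1 on mm9. Of 6 libraries, 0 pairs held identical values. Genes whose FPKM averaged 1 or more over the 6 libraries were tested on log2(FPKM + 1) with limma 3.58.1 in R 4.3.3, in 1 fit over 24 libraries and 8 groups, with moderated variances that follow the mean and two-sided p-values adjusted over 13581 genes. Summaries were made in Python 3.11.15 (numpy 2.4.6, pandas 2.3.3) and plots in matplotlib 3.10.9. On simulated data for this comparison with 13581 genes, the procedure called 90 of 100 genes changed by a log2 of 3, 73 of 100 changed by 2, and 9 unchanged genes, and 0 where no gene was changed. A fit of the 6 simulated libraries alone called 135 of the 200 changed genes. The changed genes were drawn among those of higher FPKM, and the simulated spread of a gene was the same in all groups. Recovery of genes with low FPKM or unequal spread was not measured.

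The genes, lists and comparison were chosen with earlier results of these data known. Genes were named by a rule, which took the transduced genes, up to 10 called genes in each direction without overlap, and the first 3 tested members of each list with any called member. Of the genes this rule takes, 3 are not reported here. All further genes named were chosen after their values were seen. The alternatives were other pseudocounts and filters, the 6 libraries alone, a replicate block, scaling, unsummed transcripts, the study's criterion, Spearman correlation and each library left out. A fit without sinusoidal ECs was added after seeing the data.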

Additional observations from a re-analysis of the deposited data

How the results depend on the processing

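Mall was lower in Akt-RACVECs and called under each fit of all groups, including those that left out 1 library, and lost its call in the fit of the 6 libraries alone, where 0 genes were called lower (253 at an unadjusted p below 0.05 and past 2-fold by limma) and 0 higher (198). In that fit the lowest adjusted p was 0.0607, for Etv2. With a pseudocount of 0.1, 2 genes were called higher and 4 lower. By the criterion of the study's methods, a ratio of averaged FPKM past 2-fold with an unadjusted p below 0.05, 69 genes were higher and 56 lower of 15618, without Mall. Leaving out 1 library gave 0 to 16 genes higher and 1 to 57 lower, the upper ends without Akt-LEC 3, and 7 higher without Akt-RACVEC 3, several of them near-copies of the stefin A family whose counting is uncertain. Of the genes called, those also called the same way in Akt-MACs against Akt-liver ECs numbered 0 to 4 higher and 1 to 21 lower across the libraries left out. The upper ends were 4 of 16 and 21 of 57 without Akt-LEC 3, where 6.39% and 5.41% of all genes were called that way. Without Akt-RACVEC 2 it was 2 of 3 lower, against 5.68% of all genes. Both comparisons came from the same fit and shared the estimated spread of each gene. A gene of small spread is more readily called in both, so the overlap is not independent evidence. The mean correlation between the groups was 0.772 over genes whose FPKM averaged 10 or more, and pairs within Akt-LECs were then at 0.755. The cause of these differences was not tested.

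The replicate numbers do not pair the samples, since the deviations of same-numbered libraries correlated at 0.419, -0.179 and 0.158. With the replicate number as a block, 0 genes were called higher and 1 lower, and 0 and 0 in the 6 libraries with the block, a fit too small to say anything about stability.

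Of 1470 alternative values for 99 named genes, 1402 kept direction and side of the threshold, 16 were called in addition, 2 lost the call (Mall), and 50 of 24 genes changed sign. None of the genes that changed sign was called. With a pseudocount of 10, the log2 fold change was -0.01 for Tbx3, -0.01 for Vegfa, 0.13 for Vwf and 0.24 for Bmp2. Over the libraries left out, the log2 fold change ran from -0.07 to 0.55 for Fli1, -0.24 to 0.09 for Akt1, -0.02 to 0.64 for Cdh5, -0.34 to 1.01 for Sox17, -0.42 to 0.82 for Sox18, -0.51 to 0.26 for Foxf1 and -1.30 to 1.98 for Tbx3. The range was -0.00 to 0.40 for Notch1, -1.09 to 0.76 for Notch3, -0.66 to 0.79 for Vegfa, -1.02 to 0.22 for Sele, -3.17 to 1.13 for Vwf, -0.15 to 2.13 for F8 and -0.87 to 0.13 for Col18a1. It was -0.08 to 2.64 for Igf2, -0.56 to 0.66 for Igf2r, -1.11 to 0.13 for H2-D1, -1.23 to 0.38 for Stat2, -0.69 to 0.19 for Akt2, -1.99 to 1.05 for Bmp2, -1.84 to 0.57 for Bmp4, -0.56 to 0.04 for Top2a, -0.78 to 0.99 for Car4 and -3.69 to 1.34 for Col1a1.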

Other observations

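Genes outside the lists above also differed between the libraries without passing the adjusted threshold. Insl3, a relaxin-family hormone, had 0.29, 5.86 and 21.9 FPKM in Akt-LECs and 28.1, 39.3 and 89.3 FPKM in Akt-RACVECs, with no overlap (log2 fold change 3.01, SE 0.95, adjusted p = 0.285 by limma). Lefty1, an antagonist of Nodal, had 13.9, 31.4 and 10.3 FPKM in Akt-LECs and was listed at 0 in all Akt-RACVECs (adjusted p = 0.143). Trpv4, an osmosensitive and mechanosensitive calcium channel, had 18.7, 93.6 and 11.99 FPKM against 2.40, 0 and 0 FPKM (log2 fold change -4.27, SE 0.99, adjusted p = 0.188). Zbp1, a sensor of Z-form nucleic acids, had 11.9, 117 and 12.9 FPKM against 0.76, 0 and 0.98 FPKM (log2 fold change -4.19, SE 0.98, adjusted p = 0.188). The stefin A genes Stfa1, Cstdc4 and Csta3, near-identical copies whose fragments may be divided arbitrarily, were above 0 in Akt-RACVECs 1 and 2 and at 0 in Akt-RACVEC 3 and in all Akt-LECs.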
